A study of Homo sapiens with 6 samples.

Results

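The genes described here run the G1 phase of the cell cycle, the interval before DNA is copied. They are the 3 D cyclins CCND1, CCND2 and CCND3, the 2 E cyclins CCNE1 and CCNE2, the kinases CDK4, CDK6 and CDK2, the inhibitor CDKN1B (p27) and the retinoblastoma gene RB1. They were chosen by name for this role, with earlier results of these data known. This gave 10 genes of the 60719 in the gene tables and 97 transcripts of the 232184 in the transcript tables. All 10 genes passed the filter on low counts.

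RNA was compared between hPSCs kept under simulated microgravity (sµg, 3 libraries) and hPSCs kept in normal gravity (1g, 3 libraries). The labels name H1 and H9, lines derived from human embryos, for every library, and both groups grew on Matrigel in StemFlex medium with no genetic change. By the study's methods, sµg slides spent 96 h on a clinostat, which turns attached cells close to its axis of rotation, and 1g slides were kept static for as long. The sources used here do not give the line behind each library or say that a group's libraries came from separate cultures, so p-values measure the spread between these libraries, which may be technical.

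In G1, mitogens induce the D cyclins, which bind CDK4 or CDK6 and start the phosphorylation of RB1. RB1 and its relatives hold back E2F transcription factors, and once these are free they induce the E cyclins, which bind CDK2 and complete the phosphorylation of RB1. CDKN1B binds and blocks the cyclin E complex with CDK2, while it helps D cyclins and CDK4 to assemble. Human pluripotent stem cells are known for a short G1 phase and for active CDK2 through most of the cycle.

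Of the 10 genes, CCNE1, CDK2 and RB1 were higher in cells under sµg and CCND1, CCND3, CCNE2 and CDK6 were lower (edgeR quasi-likelihood test, Benjamini-Hochberg adjusted p under 0.05 over all genes tested). The 3 higher genes compare with 15.5% of all 16763 genes tested, and the 4 lower ones with 18.2%. In library-scaled counts (CPM, counts relative to the library total) the sµg and 1g libraries did not overlap for 7 of the 10, against 45.5% of all genes. The median log2 fold change of the 10 genes was -0.05, against 0.01 over all genes. CCND1 and CDK6 were past the threshold under all 15 alternative analyses, and the other 5 calls each lost it under at least 1. In bulk RNA, fewer cells of a type and less RNA per cell cannot be told apart.

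**Figure D1:**
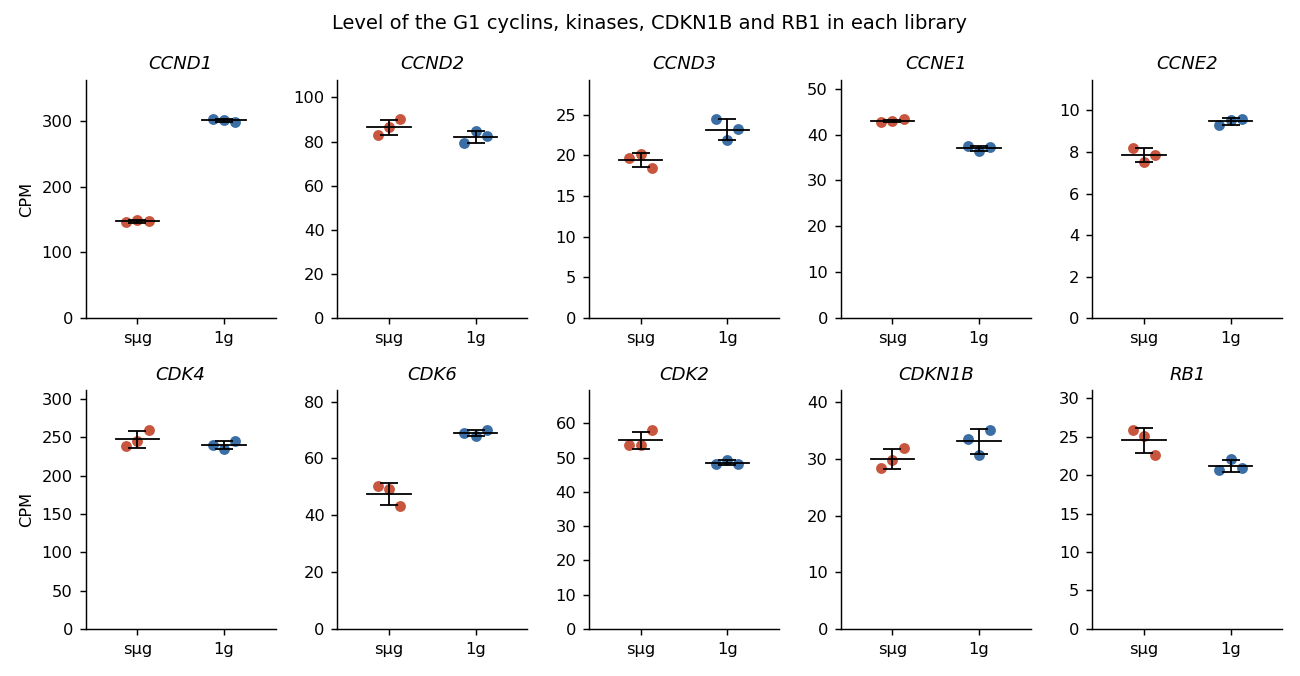
CPM of the 10 genes (vertical axes, each from 0) in the 3 sµg libraries (left in each panel) and the 3 1g libraries (right), with 1 point per library, the mean as a line and the SD as bars. CCND1 lay between 145.7 and 150.0 CPM in sµg and between 298.9 and 302.4 CPM in 1g, the widest separation of the 10.

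The libraries held between 19971097 and 20588215 expected counts in sµg and between 20876937 and 28506848 in 1g. The sµg replicate 3 stood apart from the other 2 sµg libraries, with a chi-square per degree of freedom of 6.22 and 5.93 against values of 1.64 to 2.22 for the other pairs within a group. Without it, 3 of the 10 genes were higher and 4 lower, with CCNE2 no longer past the threshold and CDKN1B past it. The share of mitochondrial counts was 4.69, 4.76 and 4.11% in the sµg libraries and 5.33, 5.26 and 5.23% in the 1g libraries, without overlap, and its part in the results was not tested. The pluripotency markers POU5F1, SOX2 and NANOG averaged 2259, 163 and 109 TPM in sµg and 2183, 159 and 116 TPM in 1g, and none of the 3 passed the test, while PODXL, DNMT3B, LIN28A and SALL4 of the 10 pluripotency markers fell by 0.74, 0.50, 0.37 and 0.18 on the log2 scale, the SALL4 call being lost in 2 of 15 alternatives. TPM is RSEM's level per length of transcript, scaled to a constant sum per library. All 9 tested markers of trophectoderm or amnion, of 10 listed, were lower in sµg, with a median log2 fold change of -2.34 and a summed level of 48.7 to 53.6 TPM in sµg against 95.6 to 105 TPM in 1g. Some passed the filter on low counts only through the 1g libraries, such as HAND1, with 4 expected counts in sµg and 193 in 1g. With at least 10 counts required in every library, 5 were tested and all 5 were lower, with a median log2 fold change of -1.23. No marker of that list was at 0 in all 6 libraries. Of the tested markers of fibroblasts 1 rose and 2 fell of 4, and of neural cells 2 and 2 of 6. For mesoderm these were 1 and 2 of 5 and for endoderm 1 and 2 of 5. Among all genes tested, 15.5% rose and 18.2% fell. The part of such cells in the results below was not tested.

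The promoters of 4 of the annotated starts are shown. CCNE1 was higher, CDK6 was lower and has 2 annotated start sites in the table, and CDK4 was the most abundant gene of the group. Each window runs 5′ to 3′ on the gene's strand for 280 bases, 250 before the start and 30 after it (RefSeq, GRCh38.p14). In the first 3, capitals mark the GC box GGGCGG on either strand, the word that SP1 factors bind, and in the last they mark the E-box CACGTG, the word that MYC and its relatives bind.
CCNE1, chr19:29811741-29812020, plus strand: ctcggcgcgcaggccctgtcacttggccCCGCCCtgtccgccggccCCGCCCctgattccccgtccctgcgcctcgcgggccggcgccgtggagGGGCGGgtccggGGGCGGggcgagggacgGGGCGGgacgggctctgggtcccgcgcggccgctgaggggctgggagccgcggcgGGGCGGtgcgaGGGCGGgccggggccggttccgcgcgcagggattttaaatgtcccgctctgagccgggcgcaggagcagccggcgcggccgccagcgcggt
CDK6, start of CDK6-202, chr7:92836544-92836823, minus strand: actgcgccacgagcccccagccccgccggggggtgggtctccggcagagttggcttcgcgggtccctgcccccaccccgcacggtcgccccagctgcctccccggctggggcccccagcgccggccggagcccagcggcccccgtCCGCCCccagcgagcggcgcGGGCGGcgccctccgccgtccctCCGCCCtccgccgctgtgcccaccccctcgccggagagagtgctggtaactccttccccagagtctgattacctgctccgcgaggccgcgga
CDK6, start of CDK6-201, chr7:92833930-92834209, minus strand: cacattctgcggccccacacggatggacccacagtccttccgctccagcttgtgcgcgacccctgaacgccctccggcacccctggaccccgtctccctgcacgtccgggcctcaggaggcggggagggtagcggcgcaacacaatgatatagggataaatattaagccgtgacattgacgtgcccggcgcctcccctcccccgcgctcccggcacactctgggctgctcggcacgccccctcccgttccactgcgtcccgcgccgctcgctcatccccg
CDK4, chr12:57752281-57752560, minus strand: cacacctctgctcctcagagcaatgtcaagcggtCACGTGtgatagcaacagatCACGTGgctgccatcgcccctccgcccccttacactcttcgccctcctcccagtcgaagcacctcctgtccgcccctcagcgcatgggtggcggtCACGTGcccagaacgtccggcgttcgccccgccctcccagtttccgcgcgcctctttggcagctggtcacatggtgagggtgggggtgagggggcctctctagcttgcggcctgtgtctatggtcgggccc

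The CCNE1 window held 7 GC boxes, a number that 1.32% of all 35116 windows reached. The upstream CDK6 window held 3 and the downstream one none, and 44.1% of all windows held at least 1. The CDK4 window also held 3 GC boxes, which are not marked above. The CCND3 windows, not shown, held 5, 3 and 0, the CDKN1B window 1 and the RB1 window 0. CCND3-203, the transcript with the largest share of CCND3, begins at the window with 3. The RB1 window lies within the gene, at a start of RB1-204 and RB1-206, which have no defined reading frame. The start of RB1-201, the transcript with the largest share of RB1, was not searched. The CDK4 window held 3 E-boxes, a number reached by 0.0911% of windows, while 6.94% held at least 1. In all, 6 of the 10 genes had 9 windows in the table. None of the 9 held the E2F words TTTGGCGC, TTTCCCGC, TTTCGCGC or TTTGCCGC, searched on both strands, which 3.14% of all windows held. A match is a description of letters and does not show that a factor was bound in these cells.

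CCND1 (chr11:69641156-69654474, plus strand, GENCODE 44 on GRCh38) encodes cyclin D1, the D cyclin most widely induced by growth signals. It had 146, 150.0 and 147 CPM in the sµg libraries, against 302, 302 and 299 CPM in the 1g libraries. The groups were far apart and each was tight. CCND1 fell by 1.03 on the log2 scale (SE 0.035, 95% interval -1.10 to -0.95, adjusted p = 1.1e-13, edgeR), to 0.49 of its 1g level. In TPM, which divides by length, it had 50.7, 54.9 and 49.9 in sµg and 111, 108 and 105 in 1g, again without overlap. The size of its change stood at the 97.0 percentile of all genes tested. Over the 15 alternatives its log2 fold change lay between -1.10 and -1.02.

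CCND1 shares 497 exon bases with LTO1 on the opposite strand, which had 930 expected counts over the sµg libraries and 965 over the 1g libraries, where CCND1 had 9081 and 21528. The library kit marks the strand, but RSEM at its defaults does not use it, so reads of these shared bases could be divided between the genes.

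CCND2 (chr12:4269771-4305353, plus strand) encodes cyclin D2. It had 83.2, 86.5 and 90.0 CPM in sµg and 79.4, 84.8 and 82.4 CPM in 1g. The ranges overlapped, and the log2 fold change was 0.08 (SE 0.043, 95% interval -0.02 to 0.17, adjusted p = 0.194, edgeR). CCND2 shares 999 exon bases with ENSG00000285901 on the same strand, which had 983 expected counts in sµg and 1109 in 1g.

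CCND3 (chr6:41934934-42050357, minus strand) encodes cyclin D3. It had 19.7, 20.1 and 18.5 CPM in sµg, against 24.4, 21.9 and 23.2 CPM in 1g. Every sµg library was below every 1g library in CPM, and CCND3 fell by 0.26 on the log2 scale (SE 0.066, adjusted p = 0.00558, edgeR). In TPM the ranges overlapped, with 16.6, 18.3 and 15.3 in sµg and 20.2, 17.6 and 19.1 in 1g. The call was lost with an effective length offset (adjusted p = 0.122) and with limma on log2(TPM + 1) (adjusted p = 0.195), over a range of 0.00157 to 0.195 among the alternatives.

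The D cyclins together had 86.0, 92.1 and 85.8 TPM in sµg, against 150.0, 143 and 144 TPM in 1g. CCND1 made up 59.0, 59.6 and 58.2% of this sum in sµg and 74.3, 75.1 and 72.9% in 1g, a difference of -15.2 percentage points. CCND2 made up 21.7, 20.6 and 24.0% in sµg and 12.2, 12.6 and 13.8% in 1g. CCND3 made up 19.3, 19.9 and 17.9% in sµg and 13.5, 12.3 and 13.3% in 1g. So the D cyclin RNA was smaller in total in every sµg library and less weighted to CCND1. The ratio of CCND1 to CCND2 was 2.72, 2.90 and 2.43 in sµg, against 6.07, 5.94 and 5.27 in 1g. Shares of expected counts, not divided by length, gave a difference of 13.9 points for CCND2 and 1.96 for CCND3.

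**Figure D2:**
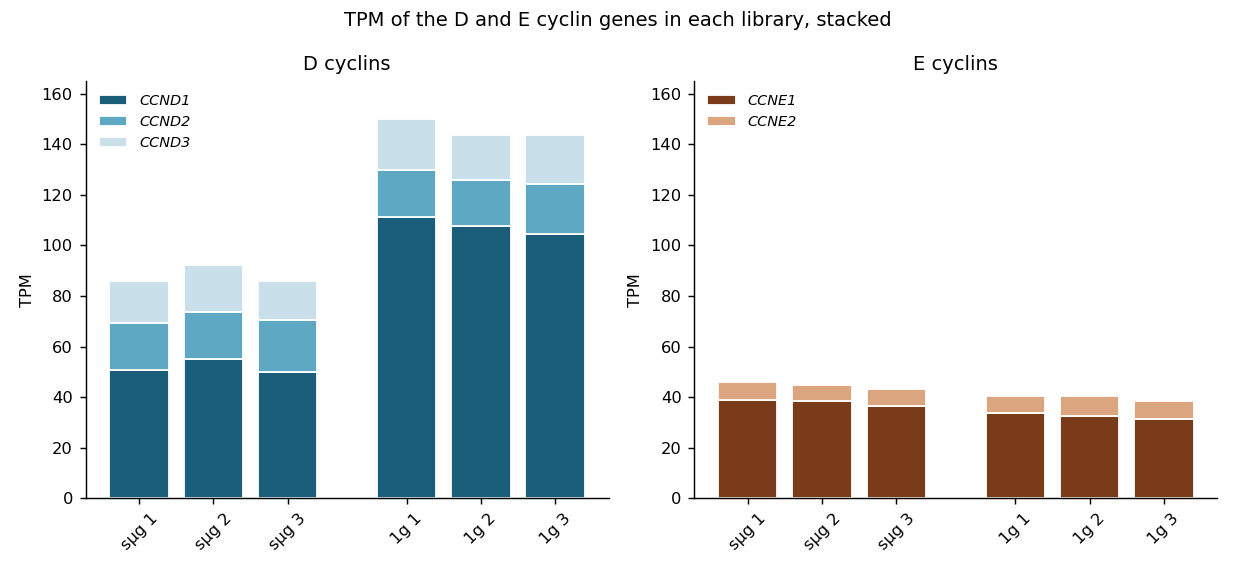
TPM of the D cyclin genes (left panel) and the E cyclin genes (right panel), stacked in each of the 3 sµg and 3 1g libraries on a common axis from 0. The D cyclin stack was 85.8 to 92.1 TPM high in sµg and 143 to 150.0 TPM in 1g, and the difference lay in the CCND1 segment. The E cyclin stack was 43.2 to 45.8 TPM in sµg and 38.5 to 40.6 TPM in 1g.

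CCNE1 (chr19:29811991-29824312, plus strand), whose promoter is shown above, encodes cyclin E1. It had 42.8, 43.0 and 43.3 CPM in sµg, against 37.4, 36.4 and 37.3 CPM in 1g. The groups did not overlap and each was tight. CCNE1 rose by 0.22 on the log2 scale (SE 0.048, 95% interval 0.12 to 0.32, adjusted p = 0.00177, edgeR). In TPM it had 38.8, 38.3 and 36.6 in sµg and 33.8, 32.6 and 31.5 in 1g, also without overlap. With an effective length offset the log2 fold change was 0.18 and the adjusted p 0.0627, the single value above 0.05 among the 15 alternatives, which began at 0.000835.

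CCNE2, on chromosome 8, encodes cyclin E2. It was the least abundant of the cyclins, with 8.17, 7.502 and 7.87 CPM in sµg, against 9.29, 9.55 and 9.56 CPM in 1g. Every sµg library was below every 1g library in CPM, and CCNE2 fell by 0.27 on the log2 scale (SE 0.092, adjusted p = 0.0309, edgeR). Its TPM ranges overlapped, with 6.97, 6.28 and 6.65 in sµg and 6.83, 7.75 and 7.01 in 1g. The call was lost in 11 of 15 alternatives, with adjusted p between 0.0296 and 0.473. It was lost without sµg replicate 2 (0.105) or 3 (0.0509) and without 1g replicate 1 (0.0653), 2 (0.0739) or 3 (0.0794). CCNE2 shares 1629 exon bases with INTS8 on the opposite strand, which had 4469 expected counts in sµg and 4463 in 1g.

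The E cyclins together had 45.8, 44.6 and 43.2 TPM in sµg, against 40.6, 40.4 and 38.5 TPM in 1g. CCNE1 made up 84.8, 85.9 and 84.6% of this sum in sµg and 83.2, 80.8 and 81.8% in 1g. Set against all D and E cyclins, the E cyclins held 34.8, 32.6 and 33.5% in sµg and 21.3, 21.9 and 21.1% in 1g. The difference of 12.2 points came with a D cyclin sum lower by 57.7 TPM and an E cyclin sum higher by 4.72 TPM. In expected counts the E cyclins held 16.7% of the sum in sµg and 10.3% in 1g, a difference of 6.44 points.

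CDK4 (chr12:57747727-57756013, minus strand), the D cyclin kinase with 3 E-boxes in the window above, had the highest TPM of the 10 genes in every library. It had 238, 245 and 259 CPM in sµg and 240.1, 235 and 245 CPM in 1g. The ranges overlapped, and the log2 fold change was 0.05 (SE 0.038, 95% interval -0.04 to 0.13, adjusted p = 0.409, edgeR). CDK4 shares 1369 exon bases with TSPAN31 on the opposite strand, which had 986 expected counts in sµg and 1536 in 1g.

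CDK6 (chr7:92604921-92836573, minus strand) encodes the second D cyclin kinase. It had 50.4, 49.1 and 43.2 CPM in sµg, against 68.8, 67.9 and 69.9 CPM in 1g. The groups did not overlap, and sµg replicate 3 was the lowest. CDK6 fell by 0.53 on the log2 scale (SE 0.053, 95% interval -0.64 to -0.42, adjusted p = 3.05e-07, edgeR). In TPM it had 7.88, 10.1 and 6.26 in sµg and 11.6, 12.3 and 12.0 in 1g. The call held without sµg replicate 3 and in the other alternatives, where the log2 fold change lay between -0.62 and -0.47. CDK4 made up 97.2, 96.7 and 97.9% of the TPM of CDK4 plus CDK6 in sµg and averaged 95.8 ± 0.138% in 1g (SD, n = 3). Of expected counts, not divided by length, CDK4 held 83.8 ± 1.66% in sµg and 77.7 ± 0.105% in 1g (SD, n = 3 each), a difference of 6.16 points against 1.45 in TPM.

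CDK2 (chr12:55966781-55972789, plus strand) encodes the kinase that E cyclins activate. It had 53.6, 53.6 and 58.0 CPM in sµg, against 48.2, 49.4 and 48.0 CPM in 1g. The groups did not overlap in CPM, and CDK2 rose by 0.18 on the log2 scale (SE 0.048, adjusted p = 0.00585, edgeR). In TPM they overlapped, with 52.5, 53.1 and 44.5 in sµg and 41.1, 44.97 and 48.6 in 1g. The sµg replicate 3 was highest of its group in CPM and lowest in TPM. Its estimated effective length was 1669 bases, against 1378 and 1354 in the other sµg libraries and 1518, 1424 and 1272 in 1g. In sµg replicate 3 the 445-base transcript CDK2-205 had 6.49 TPM, against 18.0 and 18.4 in the other sµg libraries. CDK2-201, with 298 codons, had 25.1 TPM there, against 25.8 and 22.7. The call was lost with an effective length offset (adjusted p = 0.339) and with limma on log2(TPM + 1) (0.254), over a range of 0.00366 to 0.339. CDK2 shares 89 exon bases with PMEL on the opposite strand, which had 7687 expected counts in sµg and 13873 in 1g.

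CDKN1B (chr12:12685498-12722369, plus strand) encodes p27. It had 28.4, 29.8 and 31.9 CPM in sµg and 33.5, 30.8 and 35.1 CPM in 1g. The ranges overlapped, and the log2 fold change was -0.14 (SE 0.062, 95% interval -0.27 to -0.01, adjusted p = 0.0824, edgeR). By edgeR the difference passed the threshold when sµg replicate 3 (adjusted p = 0.015) or 1g replicate 2 (adjusted p = 0.0428) was left out, over a range of 0.015 to 0.487. Set against the summed D cyclins, CDKN1B had a TPM ratio of 0.202, 0.196 and 0.226 in sµg and 0.131, 0.126 and 0.143 in 1g. Set against CDK2 the ratios overlapped, with 0.331, 0.34 and 0.435 in sµg and 0.479, 0.402 and 0.421 in 1g.

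RB1 (chr13:48303744-48599436, plus strand) encodes the pocket protein that the cyclin complexes phosphorylate. It had 25.9, 25.1 and 22.7 CPM in sµg, against 20.7, 22.2 and 20.9 CPM in 1g. The groups did not overlap in CPM, with sµg replicate 3 closest to 1g, and RB1 rose by 0.21 on the log2 scale (SE 0.066, adjusted p = 0.0188, edgeR). In TPM they overlapped, with 9.24, 7.61 and 6.93 in sµg and 6.53, 7.84 and 6.03 in 1g. The call was lost in 9 of 15 alternatives, with adjusted p between 0.00127 and 0.329. It was lost without sµg replicate 1 (0.0893) or 2 (0.0625) and without 1g replicate 1 (0.0861) or 3 (0.0699).

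**Figure D3:**
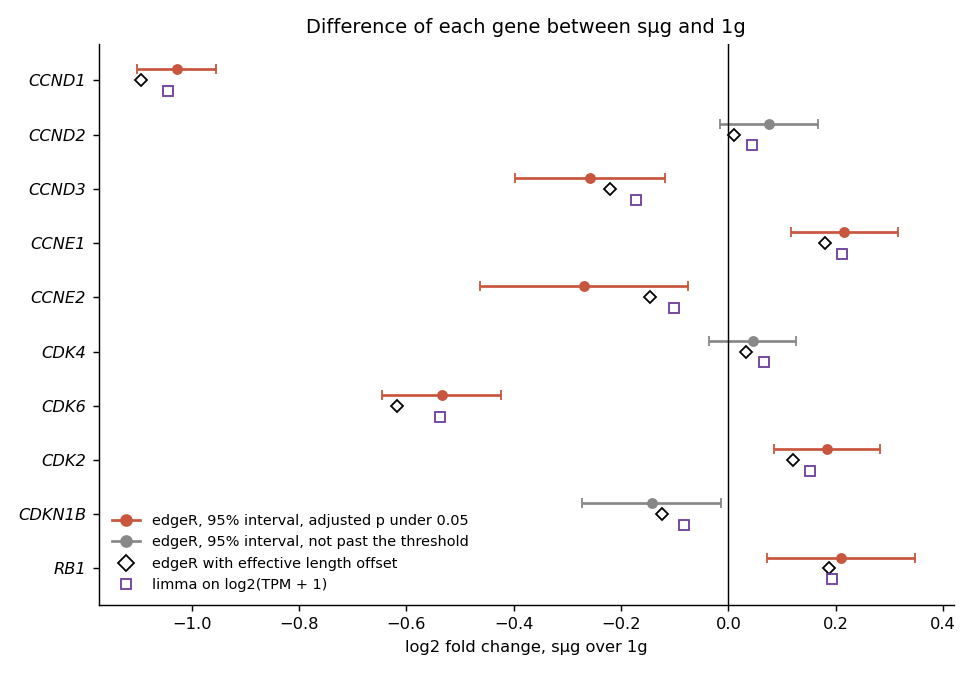
Log2 fold change of each gene, sµg over 1g (horizontal axis). Circles with bars give edgeR and its 95% interval, coloured where the adjusted p was under 0.05 and grey where it was not, and open symbols give edgeR with an effective length offset (diamonds) and limma on log2(TPM + 1) (squares). CCND1 at -1.03 and CDK6 at -0.53 stand apart from the other 8 genes, which lie between -0.27 and 0.22 and keep their sign in the 3 analyses.

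When the length that RSEM estimated in each library entered the edgeR fit as an offset, 2 of the 10 genes, CCND1 and CDK6, were lower and none was higher, against 1 higher and 3 lower at an unadjusted p under 0.05. By limma on log2(TPM + 1), 1 gene was higher and 2 were lower. By DESeq2 on the counts, 2 were higher and 3 lower. No gene of the 10 changed its sign in any alternative.

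Ordered by mean TPM in sµg, CDK4 stood first at 288.5 ± 10.75, followed by CCND1 at 51.8 ± 2.67 and CDK2 at 50.05 ± 4.79 (SD, n = 3 each), whose library values overlapped. CCNE1 came next at 37.9. CCND2, CDKN1B and CCND3 followed at 19.4, 18.3 and 16.8 with overlapping values, and CDK6, RB1 and CCNE2 at 8.07, 7.93 and 6.63 likewise. In 1g the order began with CDK4 at 275, CCND1 at 108 and CDK2 at 44.9, each without overlap with the next. CCNE1 at 32.6 was followed by CDKN1B, CCND3 and CCND2 at 19.4, 19.0 and 18.8, which overlapped. CDK6 stood alone at 11.98, above CCNE2 and RB1 at 7.20 and 6.80, which overlapped. In gene TPM, CCND1 was thus well above CDK2 in 1g and level with it in sµg. The CDK2 value includes CDK2-205, which has no defined reading frame, at 14.3 TPM in sµg and 14.7 in 1g on average. Among the transcripts with the largest share of each gene, CCND1-201 averaged 48.1 TPM in sµg and 95.3 in 1g. CDK2-201 averaged 24.6 TPM in sµg and 21.3 in 1g, below CCND1-201 in both groups.

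At the level of transcripts, 40 of the 97 passed the filter and 27 were either past the threshold or held at least 5% of their gene. A single one was lower in sµg, CCND1-201, and none was higher (edgeR), against 1.29% lower and 0.476% higher of all 53807 transcripts tested. At an unadjusted p under 0.05, 3 were lower and 4 higher, and DESeq2 called 1 higher. The coefficient of variation between libraries of a group, beyond counting noise, was estimated by edgeR as 1 common value. It was 48.4% for transcripts and 3.96% for genes. RSEM's division of reads between transcripts adds an error that these p-values do not hold.

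CCND1-201, the full transcript with 5 exons and 295 codons, had 48.4, 49.4 and 46.4 TPM in sµg, against 95.8, 95.9 and 94.3 TPM in 1g. It fell by 1.03 on the log2 scale (SE 0.028, adjusted p = 2.36e-04, edgeR), in step with its gene. It held 95.4, 90.0 and 93.0% of CCND1 in sµg and 85.9, 89.1 and 90.1% in 1g.

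CDK6-201 and CDK6-202 begin at the 2 start sites shown above and hold the same 326 codons. CDK6-201 had 0.01, 46.8 and 61.6% of the gene's TPM in sµg and 28.8, 30.6 and 41.1% in 1g. CDK6-202 had 74.1, 8.34 and 14.8% in sµg and 36.6, 30.2 and 22.7% in 1g. Both swung widely among the sµg libraries, and neither passed the test (adjusted p = 0.929 and 0.874, edgeR), although the gene as a whole was lower in each sµg library. CDK6-203, a 2-exon transcript with a retained intron and no coding bases, held 28.4% of the gene's TPM in sµg and 35.4% in 1g on average. It did not pass the test (log2 fold change -0.85, adjusted p = 0.529, edgeR).

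CCNE1-201, the 12-exon transcript from the CCNE1 start above, had 15.8, 11.7 and 17.2 TPM in sµg and 10.1, 8.32 and 11.5 TPM in 1g. The groups did not overlap, yet the difference did not pass (log2 fold change 0.54, SE 0.197, adjusted p = 0.326, edgeR). CCNE1-202 and CCNE1-203 overlapped between the groups, with 20.4 and 29.6% of the gene in sµg and 26.0 and 31.5% in 1g on average.

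CDK4-201, with 303 codons, held 49.4% of CDK4 in sµg and 48.4% in 1g on average. CDK4-203, with 208 codons, had 32.9, 34.6 and 35.5 TPM in sµg and 37.6, 43.5 and 40.8 TPM in 1g, and CDK4-211, with 203 codons, had 38.1, 34.2 and 42.2 TPM in sµg and 27.7, 28.2 and 29.4 TPM in 1g. Neither pair of ranges overlapped, and neither difference passed the test (adjusted p = 0.253 and 0.207, edgeR). CDK4-211 was the transcript that DESeq2 called higher (adjusted p = 0.0268). Of the other genes, CDKN1B-201 held 97.8% of CDKN1B in sµg and all of it in 1g, and RB1-201 held 87.1% of RB1 in each group. CCND2-201 held 93.1% of CCND2 in sµg and 84.2% in 1g, and CCND3-203 held 73.2% of CCND3 in sµg and 75.5% in 1g. CDK2-201 held 49.4% of CDK2 in sµg and 47.8% in 1g, next to CDK2-205, a 2-exon transcript with no defined reading frame, at 27.9% in sµg and 32.2% in 1g. For CCNE2 the 12-exon transcripts CCNE2-201 and CCNE2-202 held 40.3 and 32.5% in sµg and 45.2 and 30.5% in 1g.

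**Figure D4:**
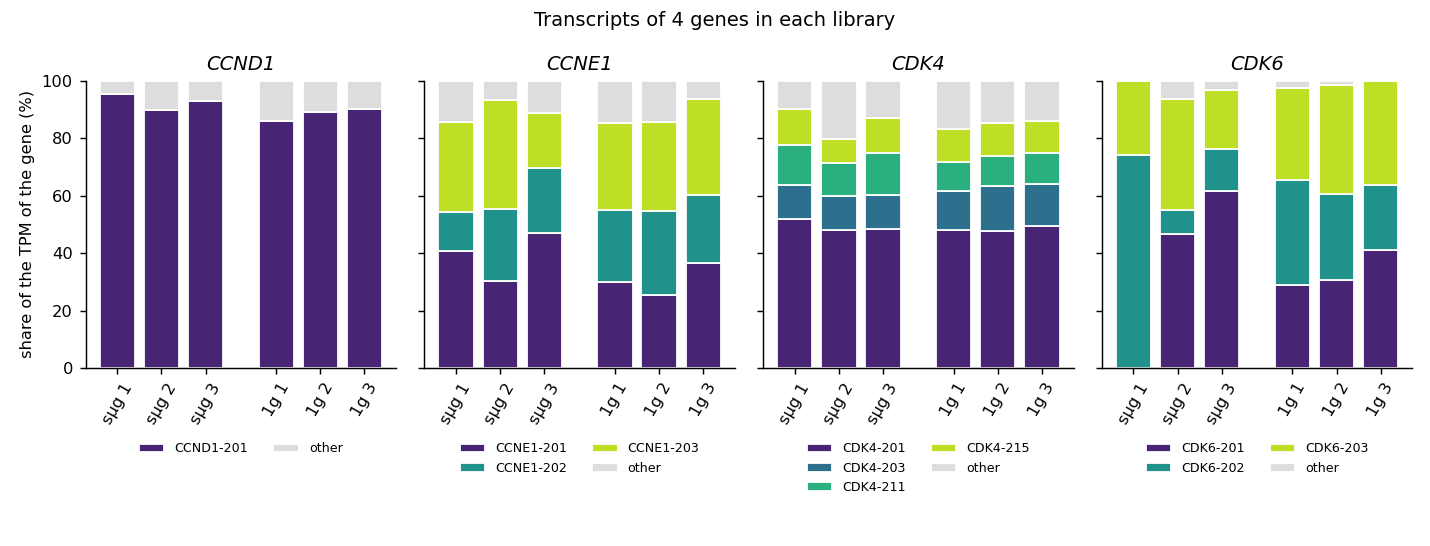
Share of each gene's TPM held by its transcripts (vertical axis, percent) in the 3 sµg libraries (left) and the 3 1g libraries (right) for CCND1, CCNE1, CDK4 and CDK6, with transcripts under 5% on average pooled as other. CDK6-201 ran between 0.01 and 61.6% in sµg and between 28.8 and 41.1% in 1g, while CCND1-201 held at least 85.9% of its gene in every library.

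Other CDK inhibitors were mostly low. CDKN1A (p21), which p53 induces, had 8.75, 10.8 and 10.6 CPM in sµg, against 15.9, 13.7 and 15.1 CPM in 1g. The groups did not overlap, and CDKN1A fell by 0.57 on the log2 scale (SE 0.093, adjusted p = 1.11e-04, edgeR). CDKN1C (p57), CDKN2D (p19) and CDKN3, a phosphatase that acts on CDKs, had log2 fold changes of -0.17, 0.03 and 0.10, and none of the 3 passed the test. CDKN2D is an INK4 gene, a family whose products block CDK4 and CDK6. Its relatives CDKN2A, CDKN2B and CDKN2C held 8, 10 and 5 expected counts over the 3 sµg libraries and 13 each over the 3 1g libraries. These were too few to be tested.

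Of the 12 pocket protein and E2F genes, 7 rose and 1 fell, against 15.5% and 18.2% of all genes tested. The median log2 fold change was 0.16, against 0.01 over all genes. E2F8, a repressor of the family, had 22.2, 21.0 and 20.5 CPM in sµg, against 13.7, 14.99 and 15.5 CPM in 1g (log2 fold change 0.53, SE 0.072, adjusted p = 1.45e-05, edgeR). E2F7, its close relative, rose by 0.43, TFDP1, the DNA-binding partner of E2F factors, by 0.34, and E2F5 by 0.21, each without overlap. These 4 rose under all 15 alternatives. E2F2, E2F3 and E2F6 rose by 0.32, 0.13 and 0.18, but lost the call in 9, 9 and 11 alternatives. By edgeR, E2F2 lost it without sµg replicate 1 (0.225) or 1g replicate 1 (0.0695), 2 (0.0542) or 3 (0.187), and E2F3 without sµg replicate 1 (0.139) or 2 (0.107) or 1g replicate 2 (0.076) or 3 (0.179). E2F6 lost it without sµg replicate 3 (0.171) or 1g replicate 1 (0.0968), 2 (0.0949) or 3 (0.128). TFDP2 fell by 0.16, a call lost in 3. E2F1, E2F4, RBL1 and RBL2, the last 2 being relatives of RB1, had log2 fold changes of 0.01, 0.04, 0.11 and 0.08 and did not pass. Without sµg replicate 3, 6 genes of this list rose and 1 fell, and with 1g replicate 2 or 3 left out 4 rose and 1 fell.

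Of 30 genes that E2F factors induce at the entry into S phase, 14 rose and 2 fell. Among all genes tested, 15.5% rose and 18.2% fell. The median log2 fold change was 0.09, against 0.01 over all genes. DBF4 and CDC7, which form the kinase that fires replication origins, rose by 0.30 and 0.31. RRM2, a subunit of ribonucleotide reductase, rose by 0.24, and MCM6, of the replicative helicase, by 0.17. The first 3 of these were past the threshold in all 15 alternatives and MCM6 in 14. CDC7 had the largest change of the list. Without sµg replicate 3, 16 rose and 3 fell. With 1g replicate 1 or 2 left out 9 rose and 2 fell, with an effective length offset 7 rose, and by limma on log2(TPM + 1) 6 rose.

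Of 9 genes that act on the activity or assembly of CDK complexes, 1 rose and 1 fell. Among all genes tested, 15.5% rose and 18.2% fell. CDK7, the kinase that activates other CDKs, rose by 0.21, a call lost in 2 alternatives. These included the fit without 1g replicate 1 (adjusted p = 0.0659, edgeR). CDC25B, a phosphatase that activates CDKs, fell by 0.44. Of 19 genes that govern the turnover of G1 cyclins and p27, 2 rose and 3 fell, against 15.5% and 18.2% of all genes. SKP2, the F-box protein that marks p27 for destruction, had 102, 98.9 and 106 CPM in sµg, against 85.1, 87.4 and 82.3 CPM in 1g (log2 fold change 0.27, SE 0.042, adjusted p = 5.95e-05, edgeR). CUL1, the scaffold of the same ligase, rose by 0.27. USP28, a deubiquitinase, fell by 0.35, a call lost in both limma analyses of log2 TPM (adjusted p up to 0.0651), and CKS1B, the cofactor of SKP2 for p27, by 0.12. The CKS1B call was lost in 9 alternatives, among them those without sµg replicate 1 (0.18) or 2 (0.0829) and without 1g replicate 1 (0.151) or 3 (0.12). Leaving out sµg replicate 3 gave 4 that rose and 2 that fell. Leaving out sµg replicate 2 or 1g replicate 1 gave 2 and 1.

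Of 26 other cyclins and CDKs, 5 rose and 4 fell, against 15.5% and 18.2% of all genes tested. CDK1, the mitotic kinase, rose by 0.27 and CDK14 by 0.38, while CDK18 fell by 0.54 and CCNG1, a p53 target, by 0.36. The CDK14 call was lost in 3 of 15 alternatives (adjusted p up to 0.169). With an effective length offset, 2 of the 26 rose and 2 fell. Of 9 proliferation markers, 3 rose, against 15.5% of all genes: TOP2A by 0.18, CENPF by 0.21 and MKI67 by 0.20. The median log2 fold change of the 9 was 0.009, against 0.006 over all genes. The TOP2A call was lost in 3 of 15 alternatives (adjusted p up to 0.0612). The MKI67 call was lost in 7 of 15 alternatives, among them those without sµg replicate 1 (0.11) or 2 (0.106) and without 1g replicate 1 (0.118) or 3 (0.0831). Without sµg replicate 3, 4 of the 9 rose, with an effective length offset 2 rose, and by limma on log2(TPM + 1) 1 rose.

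**Figure D5:**
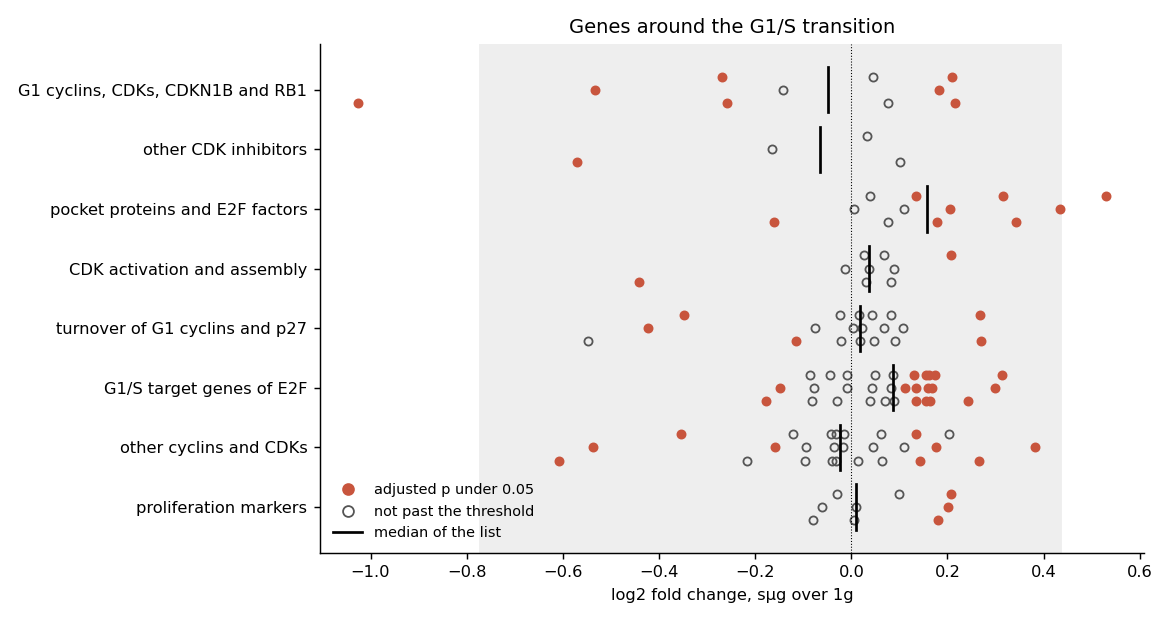
Log2 fold change, sµg over 1g (horizontal axis), of every tested gene in the group described here and in 7 lists of related genes, with 1 point per gene, filled where the edgeR adjusted p was under 0.05. Vertical bars are the list medians and the grey band spans the 5th to 95th percentile of all genes, -0.77 to 0.44. CCND1 lies left of the band and E2F8 right of it.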

How the data were processed

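Polyadenylated RNA of 6 libraries, made with a stranded kit, had been read in pairs by the authors. Per the submitters' processing notes and the study's methods, STAR 2.7.7a placed the reads on GRCh38.p13 and RSEM 1.3.3 ran at its defaults. The methods describe 2 alignment settings, and the sources used here do not say which made these tables. The expected count, as deposited by the authors, is RSEM's estimate of read pairs per gene or transcript, unscaled between libraries. The deposited TPM divides it by effective length and scales to a constant sum. The percentage of a gene's TPM held by each transcript was also deposited by the authors.

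Expected counts were rounded and tested, sµg against 1g, with edgeR 4.0.16 in R 4.3.3 (quasi-likelihood, robust, TMM scaling, filterByExpr with a minimum of 10 and a total of 15), with Benjamini-Hochberg adjustment over all features and a threshold of 0.05. The same comparison was also made with DESeq2 1.42.0, with RLE scaling, unfiltered, with a minimum of 10 counts per library, with a block for the replicate number, with RSEM's effective lengths as an offset, without each library in turn and at a threshold of 0.01. limma 3.58.1 was run on log2 TPM with pseudocounts of 1 and 0.1. Sums, shares and orders were described from TPM without a test, since an exact permutation test of 3 against 3 libraries cannot go below p = 0.1. The fits were tested on simulated data.

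The genes and lists were chosen with earlier results of these data known. Named were all 10 genes, all other CDK inhibitors, pocket proteins and E2F factors, and up to 4 genes of each other list by adjusted p. The transcripts described were taken from those with at least 5% of their gene or past the threshold, and not all of these are described. POU5F1, SOX2 and NANOG were named to check the cell type. Positions and overlaps came from GENCODE 44. Protein sequences were not analysed here.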

Additional observations from a re-analysis of the deposited data

How the results depend on the processing

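Of the 10 genes, none changed direction under the 15 alternatives. With limma on log2(TPM + 1), 1495 genes were higher and 1459 lower, 1 and 2 of them of the 10. With limma on log2(TPM + 0.1) these were 1480, 1444 and again 1 and 2. With an effective length offset, 1242 were higher and 1864 lower, 0 and 2 of the 10, against 2591 and 3057 overall as reported. At an adjusted p under 0.01, 1587 genes were higher. Leaving out a library gave 1879 to 2967 higher and 2464 to 3224 lower.

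Transcripts were 256 higher and 692 lower as reported. DESeq2 called 1814 and 2555, 1 of them a higher transcript of the 10 genes. No filter gave 168 higher, a minimum of 10 in every library 431 higher, and limma 438 or 433 lower for pseudocounts of 1 or 0.1. At 0.01, 23 were higher and 156 lower. Leaving out a library gave 15 to 146 higher and 97 to 422 lower.

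Deviations from the group means had correlations of 0.0041, 0.0414 and 0.0126 over genes between same-numbered sµg and 1g libraries. With 3 libraries per group, such values cannot decide whether the numbers pair them. The study's methods call the control samples matched. With the replicate number as a block, 3 of the 10 genes were higher and 4 lower, and 0 transcripts were higher and 10 lower by edgeR.

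None of the genes or transcripts that changed direction was past the threshold. With an effective length offset CDKN2D, CDKN3 and PDGFRB had log2 fold changes of -0.005, -0.016 and -0.009, and CDK4-215 had 0.002 and 0.001 by limma. Over the libraries left out, CDKN1C ran between -0.317 and 0.04, CDKN2D between -0.063 and 0.091, E2F1 between -0.006 and 0.029 and E2F4 between -0.004 and 0.115. For transcripts these ranges were -0.347 to 0.039 for CCNE1-202, -0.142 to 0.326 for CCNE1-203, -0.406 to 0.154 for CCNE2-202, -0.305 to 0.259 for CDK2-205, -0.141 to 0.156 for CDK4-215 and -1.066 to 0.057 for CDK6-201, the last without sµg replicate 1. The causes were not tested.

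CDKN2A, CDKN2B and CDKN2C had at most 13 counts over a group and were not tested. What sets edgeR's common estimate of 48.4% for transcripts was not tested.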
